A study of Caenorhabditis elegans with 16 samples.

Results

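The mir-51 family of C. elegans consists of mir-51, mir-52, mir-53, mir-54, mir-55 and mir-56. Its 6 genes were taken by the locus name given for each transcript in the deposited count tables, out of 224 genes of the miRNA class and 45510 genes in all. The rule uses names and no measured value, although the family was picked for description with earlier results of these data known. The study asked how loss of CDE-1, a poly(U) polymerase that adds uridines to the 3′-ends of small RNAs and rRNA, changes the small RNAs of the worm. It sequenced small RNAs in 10 libraries, 1 per group, from animals kept at 20 °C. Total small RNAs came from young adult cde-1(tm936) animals and from young adult N2, the wild type. NRDE-3-bound small RNAs came from cde-1(tm936);GFP::NRDE-3 embryos and GFP::NRDE-3 embryos, and from L3 larvae with GFP::NRDE-3 in an eri-1(mg366) background, which carried cde-1(tm936) in the eri-1;cde-1 library and not in the eri-1 library. HRDE-1-bound small RNAs came from young adult cde-1(tm936);GFP::HRDE-1 and GFP::HRDE-1 animals, and WAGO-1-bound small RNAs from young adult cde-1(tm936);GFP::WAGO-1 and GFP::WAGO-1 animals. Each tagged Argonaute was driven by its own gene's promoter and was pulled down (IP) with anti-FLAG M2 beads. Both L3 libraries carry eri-1(mg366), which disables an exonuclease needed for a class of endogenous siRNAs, and were grown on HT115 bacteria, whereas the other 8 were grown on OP50. The title of the eri-1;cde-1 library prints another cde-1 allele than its genotype label, and the label was followed. With 1 library per group, no difference below has a replicate check, and every interval covers counting error only.

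miRNAs are cut from hairpin precursors by Drosha and Dicer and are loaded, in C. elegans, mainly into the Argonautes ALG-1 and ALG-2, where the seed near the 5′-end selects target mRNAs. The members of the mir-51 family share a seed and belong to the same ancient group as miR-99 and miR-100 of other animals. They act redundantly in C. elegans. Loss of the whole family stops embryonic development and detaches the pharynx, while most single members are dispensable. NRDE-3, HRDE-1 and WAGO-1 belong to a worm-specific branch of Argonautes that binds 22G-RNAs, which RNA-dependent RNA polymerases copy from a target transcript and which therefore read as antisense to it. NRDE-3 acts in somatic nuclei, HRDE-1 in germline nuclei, and WAGO-1 in the perinuclear granules of the germline, where CDE-1 also resides.

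The 6 genes lie at 3 places in the genome (assembly WBcel235, Ensembl annotation, all 6 matched by gene identifier). On chromosome IV, mir-51 spans 11026013 to 11026112 and mir-53 spans 11027593 to 11027691, both on the minus strand and 1480 nt apart, and no listed gene overlaps either. Also on chromosome IV, mir-52 spans 14034008 to 14034107 on the plus strand, with 83 nt of it covered on the opposite strand by a noncoding RNA (14033942 to 14034090). On chromosome X, mir-56 (13144691 to 13144787), mir-55 (13144827 to 13144924) and mir-54 (13144996 to 13145094) form a cluster on the minus strand, with gaps of 39 and 71 nt. This cluster sits inside intron 1 of the protein-coding gene F09A5.3, which runs on the opposite strand, and mir-55 is additionally covered by cel-mir-55b, annotated opposite to it.

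Each miRNA has 3 rows in the count tables, 1 for the hairpin of 97 to 100 nt and 1 for each annotated arm, and the rows were summed to give the gene. The arm that is kept split the family along its loci. mir-51, mir-52 and mir-53 were read from the 5′ arm, which held 99.95%, 99.99% and 99.8% of their arm-row reads over the 10 libraries. The 3 members on X were read from the 3′ arm, which held 99.99% of arm-row reads for mir-55 and for mir-56. mir-54 was the exception to this near-complete choice, with 96.5% on the 3′ arm, and its 5′ arm held between 0.637% and 9.50% of arm-row reads in the 8 libraries with at least 50 of them. The main mature forms are annotated with 23 nt (mir-51), 24 nt (mir-52, mir-53 and mir-54), 23 nt (mir-55) and 22 nt (mir-56). Mature mir-52 and mir-53 are close in sequence, so that the split of a few reads between them is uncertain.

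The libraries held between 5200610 and 9919222 counted reads, of which 10.2% to 66.1% were sense rRNA reads and 0.162% to 5.14% were sense reads on miRNA genes. Sense reads on cde-1 itself were lower in every cde-1 library than in its control, at 0.348 to 24.5 against 11.5 to 104 RPM (reads per 1000000 counted reads less sense rRNA reads). Between the embryo and L3 libraries the miRNA stage markers followed the labels. The let-7 family (let-7, mir-48, mir-84, mir-241), which appears late in larval life, took 10.7% and 12.0% of miRNA reads in the eri-1;cde-1 and eri-1 L3 libraries, but 0.129% and 0.195% in the cde-1 and control embryo libraries. The mir-35 family (mir-35 to mir-42), which marks embryos and the germline, took 19.0% and 15.2% of miRNA reads in the cde-1 and control embryo libraries, and 0.419% and 0.331% in the L3 libraries. In young adult total RNA of cde-1 animals and N2, the mir-35 family took 11.3% and 18.7% and the let-7 family 3.63% and 4.09%. The young adult IPs held 1.48% to 4.18% mir-35 family and 10.1% to 12.1% let-7 family. A single miRNA, mir-260, took 49.8% and 55.4% of miRNA reads in the cde-1 and control embryo libraries, which lowers the share of every other miRNA there. Sense reads on 6 mRNAs of adults, the vitellogenin (yolk) genes vit-2 to vit-6 and the cuticle collagen gene col-19, were present in every library and differed within pairs. They summed to 66.1 and 869 RPM in cde-1 and control embryos, 642 and 1489 RPM in eri-1;cde-1 and eri-1 L3 larvae, 9884 and 5057 RPM in the cde-1 and control HRDE-1 IPs, 5697 and 4191 RPM in the WAGO-1 IPs, and 66777 and 69275 RPM in cde-1 and N2 total RNA. All 6 were lower in the cde-1 library in embryos and L3 larvae and higher in the HRDE-1 IPs.

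The mir-51 family was a major part of the miRNA reads in all 10 libraries. A member's share is given below as a percentage of the sense reads on all miRNA genes of its library, with the 95% Wilson interval in brackets. Among the NRDE-3 libraries, the family's share was 6.46% [6.31, 6.60] in cde-1 embryos and 5.09% [4.93, 5.25] in control embryos, and it was 13.6% [13.5, 13.7] in eri-1;cde-1 L3 larvae and 13.3% [13.2, 13.4] in eri-1 L3 larvae. In the HRDE-1 IPs it was 8.80% [8.55, 9.06] in cde-1 and 13.4% [13.0, 13.8] in control animals. In the WAGO-1 IPs it was 5.82% [5.45, 6.22] in cde-1 and 4.06% [3.69, 4.45] in control animals, the least precise of the values, since they rest on 831 and 419 family reads. In total small RNAs it was 5.87% [5.78, 5.97] in cde-1 animals and 6.32% [6.23, 6.41] in N2. The family was thus highest in both L3 libraries, whose intervals do not overlap each other, and in the HRDE-1 control library, whose interval overlaps both, and lowest in the WAGO-1 control library.

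**Figure D1:**
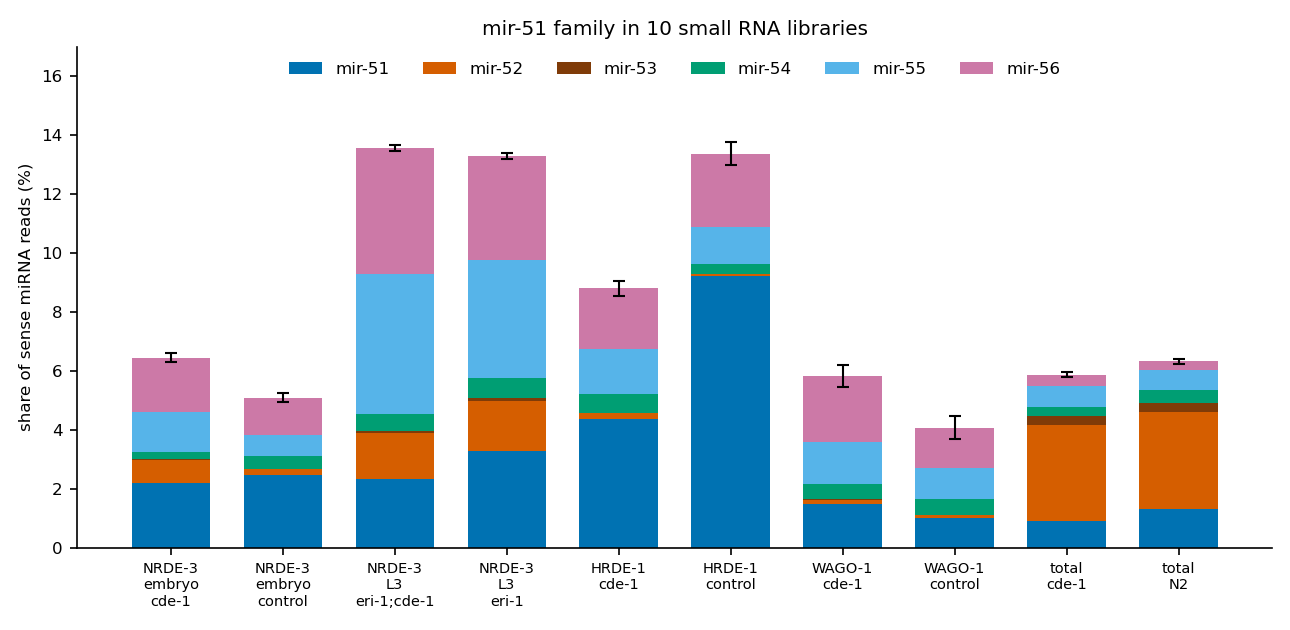
Share of sense miRNA reads (%) taken by each mir-51 family member in the 10 libraries, stacked, with the 95% Wilson interval of the family's sum, each cde-1 library left of its control. mir-52 fills over 50% of the bar only in the 2 total libraries, while mir-51 dominates the HRDE-1 bars and mir-55 and mir-56 the L3 bars.

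The makeup of the family differed more between libraries than its sum did. In total small RNAs mir-52 led, with 55.8% of the family's reads in cde-1 animals and 52.1% in N2. In the 8 IP libraries mir-52 together with mir-53 held only 0.540% to 13.7% of the family, against 60.7% in the cde-1 total library and 57.1% in the N2 total library. The 3 members of the X cluster together held 30.6% to 72.3% of the family in the IP libraries and 24.1% and 22.4% in the cde-1 and N2 total libraries.

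mir-51 led in the NRDE-3 embryo IPs, with 33.9% of the family in cde-1 and 48.4% in control, and in the HRDE-1 IPs, with 49.6% in cde-1 and 68.9% in control. With 9.22% [8.90, 9.55] of all miRNA reads it was the miRNA ranked 2 in the HRDE-1 control library, while it ranked 17, with 1.30% [1.25, 1.34], in N2 total RNA. mir-55 led in the L3 IPs, with 35% of the family in eri-1;cde-1 and 30.1% in eri-1. mir-56 led in the WAGO-1 IPs, with 38.5% in cde-1 and 33.4% in control, but in the control library its interval overlapped that of mir-55 (25.5%), and the interval of mir-55 overlapped that of mir-51 (24.8%). In the WAGO-1 cde-1 library mir-51 (25.5%) and mir-55 (24.4%) could not be told apart either. mir-53 was the lowest member in 9 of the 10 libraries. In N2 total RNA mir-56 was lowest, with 820 reads against 845 for mir-53, and per nucleotide of mature miRNA the order of this pair turned round. mir-54 was next above mir-53 in cde-1 total RNA, with overlapping intervals (761 and 708 reads).

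mir-53 had fewer reads than mir-52 in every library. In the 4 libraries with over 100 mir-53 reads it had 0.0508 (eri-1;cde-1 L3), 0.0604 (eri-1 L3), 0.0876 (cde-1 total) and 0.0950 (N2 total) reads per read of mir-52. The intervals of the lowest [0.0460, 0.0561] and highest [0.0885, 0.102] of these values do not overlap. mir-53 lies beside mir-51 and 3006316 nt from mir-52. As mature mir-52 and mir-53 are close in sequence, the split of a few reads between them is uncertain. No mir-53 read was counted in the HRDE-1 control library (0 of 30438 miRNA reads, which allows a share of up to 0.00986%) or in the WAGO-1 control library (0 of 10332, up to 0.0290%), where mir-52 had 22 and 12 reads.

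The mir-52 counts carry a further limit. The noncoding RNA on the opposite strand of mir-52 received between 8 and 4188 antisense reads per library, and in the 6 libraries with at least 138 mir-52 reads it had between 0.445 and 0.485 antisense reads per sense read of mir-52. Adding these reads to mir-52 brought it to 64.9% of the family in cde-1 total RNA and 61.6% in N2 total RNA, and the family to 7.27% and 7.75% of miRNA reads. The leading member of every library and each direction of the mir-52 comparisons below were the same with and without them. Reads on cel-mir-55b, annotated opposite mir-55, were not examined in this way.

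Total small RNAs of young adults addressed what loss of CDE-1 does to miRNAs outside any pulldown. The family as a whole was 0.929-fold [0.909, 0.949] in cde-1 animals relative to N2, and no member passed 2-fold, against 8.54% of the 82 miRNA genes tested (4.88% higher and 3.66% lower), those that reached 50 reads in at least 1 of the 2 libraries. In bulk samples, fewer cells of a type and less RNA per cell cannot be told apart. mir-51 had 2195 reads (0.891%) in cde-1 animals and 3500 (1.30%) in N2, a ratio of 0.688 [0.652, 0.725]. mir-54 had 761 reads (0.309%) and 1193 (0.442%), a ratio of 0.699 [0.639, 0.766]. mir-56, from the same cluster as mir-54, was higher, with 956 reads (0.388%) in cde-1 and 820 (0.304%) in N2, a ratio of 1.28 [1.16, 1.40]. mir-52 (8078 and 8898 reads, ratio 0.995 [0.966, 1.03]) and mir-53 (708 and 845 reads, ratio 0.919 [0.831, 1.02]) had intervals that include 1. mir-55 had 1767 reads in cde-1 and 1813 in N2, a ratio of 1.07 [1.00, 1.14]. This fell to 0.986 and 0.975 under the 2 other scalings (TMM and median-of-ratios) and rose to 1.49 with arm rows alone. No direction is therefore given for mir-55. The median ratio was 0.957 over the 6 members and 0.928 over all 82 genes.

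In the NRDE-3 embryo IPs the members moved apart. The adult mRNAs differed in the same pair (66.1 RPM in cde-1 and 869 RPM in control embryos), and their part in the members' values was not tested. mir-52 had 830 reads (0.771%) in cde-1 embryos and 138 (0.195%) in control embryos, a ratio of 3.96 [3.30, 4.74]. mir-53, read from the same arm, had 53 and 11 reads, a ratio of 3.17 [1.65, 6.07]. The X cluster did not move as 1 unit. mir-54 had 236 reads (0.219%) in cde-1 and 315 (0.445%) in control embryos, a ratio of 0.493 [0.416, 0.583], while mir-55 had 1495 (1.39%) and 497 (0.702%), a ratio of 1.98 [1.79, 2.19], and mir-56 had 1977 (1.84%) and 899 (1.27%), a ratio of 1.45 [1.34, 1.56]. mir-51 had 2359 reads (2.19%) in cde-1 and 1744 (2.46%) in control embryos, a ratio of 0.890 [0.837, 0.946] that became 1.57 per counted read, since 25.9% of counted reads were sense rRNA in the cde-1 library and 66.1% in the control library. Of the 6 members 2 were at least 2-fold higher and 1 at least 2-fold lower, against 13.2% and 7.89% of the 38 miRNA genes tested. One of those higher, mir-53, passed the filter only through the cde-1 library. Under TMM scaling mir-54 was at 0.549, short of 2-fold, and mir-55 at 2.20. The median ratio was 1.71 over the members and 1.11 over all 38 genes.

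In the L3 IPs, the deepest for miRNAs with 510183 (eri-1;cde-1) and 429897 (eri-1) sense miRNA reads, the family was level, with a ratio of 1.02 [1.01, 1.03] that was 0.988 and 0.912 under TMM and median-of-ratios scaling. No member passed 2-fold, against 2.41% of the 83 genes tested. mir-51 had 11812 reads (2.32%) in eri-1;cde-1 and 14054 (3.27%) in eri-1 larvae, a ratio of 0.708 [0.691, 0.726]. mir-53 (405 and 445 reads, ratio 0.767 [0.670, 0.877]) and mir-54 (2994 and 2930 reads, ratio 0.861 [0.818, 0.906]) were also lower, although mir-53 was at 2.05 with reads of both strands, for the antisense reads given below. mir-55 (24218 and 17204 reads, ratio 1.19 [1.16, 1.21]) and mir-56 (21848 and 15191 reads, ratio 1.21 [1.19, 1.24]) were higher. mir-52 had 7971 reads in eri-1;cde-1 and 7367 in eri-1 larvae, a ratio of 0.912 [0.884, 0.941] that was 1.00 on the RPM scale. The median ratio of the members was 0.886, and that of all 83 genes 1.12.

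In the HRDE-1 pair the family as a whole was 0.658-fold [0.632, 0.685] in cde-1 relative to control animals, the ratio of shares farthest from 1 among the 5 pairs. This order depends on the denominator, since the WAGO-1 ratio of 1.66 was farther from 1 than the HRDE-1 ratio of 0.630 on the RPM scale, and the embryo ratio of 2.23 was the farthest per counted read. The adult mRNAs also differed in the HRDE-1 pair (9884 RPM in cde-1 and 5057 RPM in control animals), and their part was not tested. The member farthest below 1 was mir-51, with 2049 reads (4.36%) in cde-1 and 2805 (9.22%) in control animals, a ratio of 0.474 [0.448, 0.50] that was 0.547 with arm rows alone. The X cluster summed to 4.23% in cde-1 and 4.09% in control animals, a ratio of 1.03 [0.964, 1.11]. Within it mir-54 had 304 reads (0.648%) in cde-1 and 106 (0.348%) in control, a ratio of 1.86 [1.49, 2.32], and mir-55 had 709 and 381, a ratio of 1.21 [1.07, 1.37]. mir-56 had 972 and 759 reads, a ratio of 0.830 [0.756, 0.912] that was 1.07 when arm rows alone were counted. mir-52 had 92 reads in cde-1 and 22 in control, a ratio of 2.71 [1.70, 4.32] that was 1.84 with reads of both strands, and mir-53 had 7 reads and none, at least 1.51-fold higher against a floor of 3 reads. Of the 5 members that passed the filter, all but mir-53, 1 was at least 2-fold higher and 1 at least 2-fold lower, against 4% and 8% of the 50 genes tested. The higher member, mir-52, passed the filter only through the cde-1 library.

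In the WAGO-1 pair the family was 1.43-fold [1.28, 1.61] in cde-1 relative to control animals, on the fewest reads. mir-56 had 320 reads (2.24%) in cde-1 and 140 (1.35%) in control, a ratio of 1.65 [1.36, 2.01]. mir-51 had 212 and 104 reads, a ratio of 1.47 [1.17, 1.86], and mir-55 had 203 and 107, a ratio of 1.37 [1.09, 1.73]. mir-54 (72 and 56 reads, ratio 0.930 [0.657, 1.32]) did not differ beyond counting error. mir-52 (21 and 12 reads, ratio 1.27 [0.623, 2.57]) and mir-53 (3 and 0 reads) did not pass the filter, and a difference was not detectable at this depth. None of the 4 members tested passed 2-fold, against 2.7% of the 37 genes tested.

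**Figure D2:**
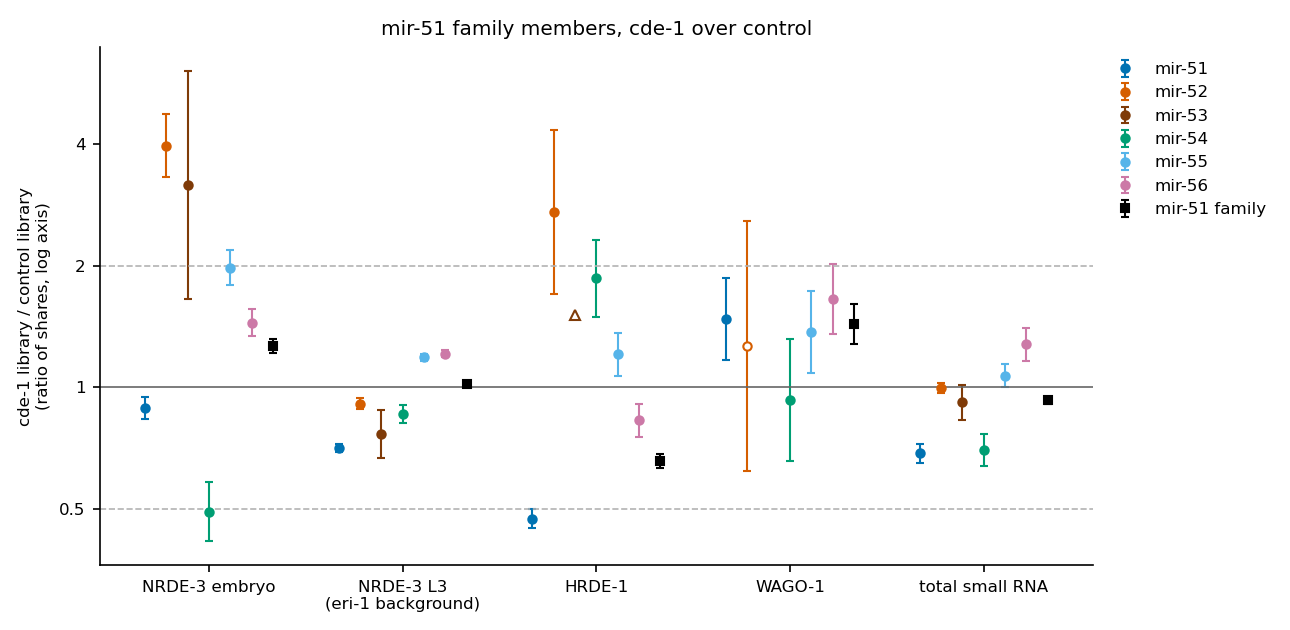
Ratio of shares, cde-1 over control (log axis), for each member and for the family's sum (square) in the 5 pairs of libraries, with 95% counting intervals, dashed lines at 2-fold, open symbols for members under 50 reads and a triangle for a lower bound against 0 reads. mir-51 lies at 0.474 in the HRDE-1 pair and 1.47 in the WAGO-1 pair, and mir-52 at 3.96 in embryos and 0.995 in total RNA.

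Set side by side over the 5 pairs, mir-51 was lower in cde-1 in total RNA, L3 larvae and the HRDE-1 IP and higher in the WAGO-1 IP, with its direction in embryos dependent on the denominator. mir-56 was higher in total RNA, embryos, L3 larvae and the WAGO-1 IP, and lower in the HRDE-1 IP (0.830), where it was 1.07 with arm rows alone. mir-52 stood between 0.912 and 1.27 in total RNA, L3 larvae and the WAGO-1 IPs, and at 3.96 in embryos and 2.71 in the HRDE-1 IPs. mir-55 was above 1 in all 5 pairs (1.07, 1.98, 1.19, 1.21 and 1.37 in total RNA, embryos, L3 larvae, HRDE-1 and WAGO-1 IPs). In total RNA it fell below 1 under TMM and median-of-ratios scaling and was 1.49 with arm rows alone.

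The young adult IPs were set against total small RNAs of the same cde-1 genotype, which asks which members go with the pulled-down material. The IP libraries held far fewer miRNA reads, 0.162% to 0.585% of counted reads against 2.71% and 2.86% in the total libraries of cde-1 and N2, and no IP from animals without a tag was analysed here. Shares within the miRNA reads therefore show the order of the members, not the amount bound. The paper describes phosphatase and kinase treatment before cloning for the Argonaute-bound RNAs only. The part of cloning in the differences between IP and total RNA was not tested. miRNA genes differed widely between IP and total RNA: 74% and 71.2% of those tested differed by at least 2-fold in the HRDE-1 comparisons of cde-1 and cde-1(+) animals, and 65.8% and 54.4% in the WAGO-1 comparisons.

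The family as a whole was 1.5-fold [1.45, 1.55] in the HRDE-1 IP over total RNA of cde-1 animals and 2.12-fold [2.05, 2.19] in cde-1(+) animals, and 0.991-fold [0.926, 1.06] and 0.642-fold [0.584, 0.705] in the WAGO-1 IPs. mir-52 and mir-53 were lower in the IP in each of the 4 comparisons. mir-52 took 0.196% of miRNA reads in the HRDE-1 IP and 3.28% in total RNA of cde-1 animals, a ratio of 0.0598 [0.0487, 0.0734], and 0.0723% and 3.30% in cde-1(+) animals, a ratio of 0.0219 [0.0144, 0.0333]. In the WAGO-1 IPs its ratio was 0.0448 [0.0292, 0.0688] in cde-1 and 0.0352 [0.0200, 0.0621] in cde-1(+) animals. mir-53 had 7 reads in the HRDE-1 and 3 in the WAGO-1 IP of cde-1 animals, for ratios of 0.0519 [0.0246, 0.109] and 0.0731 [0.0235, 0.227], and in cde-1(+) animals it was at most 0.0315-fold and at most 0.0928-fold. At least 2-fold lower were 41.6% and 42.5% of miRNA genes in the HRDE-1 comparisons, and 34.2% and 31.6% in the WAGO-1 comparisons, of cde-1 and cde-1(+) animals.

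mir-56 was the member with the highest ratio in all 4 comparisons, at 5.34 [4.88, 5.83] and 8.21 [7.45, 9.06] in HRDE-1 IPs over total RNA of cde-1 and cde-1(+) animals, and 5.77 [5.09, 6.55] and 4.46 [3.73, 5.33] in the WAGO-1 IPs. mir-51 followed in the HRDE-1 IPs (4.90 [4.62, 5.20] in cde-1 and 7.11 [6.78, 7.46] in cde-1(+) animals), but not in the WAGO-1 IPs (1.67 [1.45, 1.92] and 0.777 [0.640, 0.943]). mir-55 lay between 1.54 and 2.11 in the 4 comparisons. mir-54 was 2.10 in the HRDE-1 and 1.63 in the WAGO-1 IP of cde-1 animals, and 0.788 and 1.23 in those of cde-1(+) animals. On the RPM scale, all these ratios fell below 1 except those of mir-51 (1.21) and mir-56 (1.40) in the HRDE-1 IP of cde-1(+) animals. Members at least 2-fold higher numbered 4 and 2 of 6 in the HRDE-1 comparisons and 1 and 1 in the WAGO-1 comparisons, against 32.5%, 28.8%, 31.6% and 22.8% of the miRNA genes tested.

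**Figure D3:**
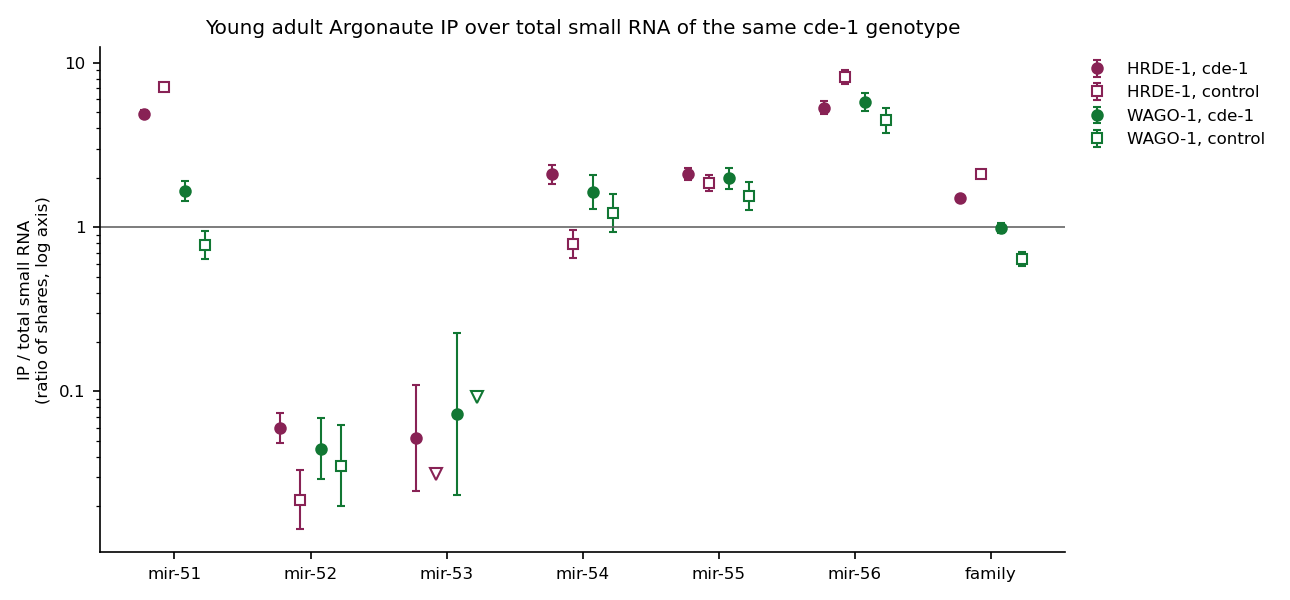
Ratio of shares, IP over total small RNA of the same cde-1 genotype (log axis), for each member and the family in young adults, with 95% counting intervals, filled for cde-1, open for control, and triangles for upper bounds from 0 reads. mir-52 and mir-53 lie at or below 0.0928 and mir-56 between 4.46 and 8.21 in all 4 comparisons.

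Between the NRDE-3 IPs of L3 larvae and embryos, stage, eri-1 and food changed together and cannot be told apart. The family took 2.10-fold [2.05, 2.15] more of the miRNA reads in eri-1;cde-1 L3 larvae than in cde-1 embryos, and 2.61-fold [2.53, 2.70] more in eri-1 L3 larvae than in control embryos, and 10.2-fold and 9.33-fold more on the RPM scale. In both genotypes 4 of 6 members were at least 2-fold higher in L3, against 71.8% and 72.8% of the miRNA genes tested, and none was at least 2-fold lower, against 9.41% and 8.64%. Among the higher members in cde-1(+) animals, mir-53 passed the filter only through the L3 library. In cde-1 and cde-1(+) animals the median ratio was 2.18 and 4.24 over the members. Over all miRNA genes tested it was higher, at 4.30 and 4.62. mir-55 was 3.42-fold [3.25, 3.6] and 5.70-fold [5.22, 6.23] higher, and mir-52 2.03-fold [1.89, 2.18] and 8.79-fold [7.43, 10.4] higher, in cde-1 and cde-1(+) animals. mir-51 was the member that differed least, at 1.06 [1.01, 1.10] and 1.33 [1.26, 1.39]. Without mir-260 in the denominator the family took 12.9% and 11.4% of miRNA reads in cde-1 and control embryos, close to its share in L3 larvae.

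How a miRNA's reads fall between its rows was examined after the values had been seen. A read that lies wholly within an annotated arm fits the hairpin row and the arm row equally, and near 50% of such reads are expected on each. A read that reaches past the arm's annotated end has a better place on the hairpin row. Read ends themselves are not given in the count tables. For mir-52 the hairpin row held 50.3% and 50.5% of reads in cde-1 and N2 total RNA and 50.2% and 49.8% in eri-1;cde-1 and eri-1 L3 larvae.

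mir-55 departed from this balance in the control libraries and less so in the cde-1 libraries. Its hairpin row held 51.0% of reads in cde-1 embryos against 57.9% in control embryos (difference -6.91 percentage points [-11.9, -1.85]), and 51.0% in eri-1;cde-1 against 57.2% in eri-1 L3 larvae (-6.16 [-7.13, -5.19]). In the HRDE-1 IPs it held 50.2% in cde-1 and 62.2% in control animals (-12.0 [-18.0, -5.82]), in the WAGO-1 IPs 46.8% in cde-1 and 60.7% in control animals (-13.9 [-25.0, -2.26]), and in total RNA 47.5% in cde-1 and 62.2% in N2 (-14.7 [-17.9, -11.5]). The share was thus lower in the cde-1 library of all 5 pairs, by more than counting error. In total RNA this was the largest drop among the 72 miRNA genes with at least 50 reads in both libraries. Its rank from the lowest difference was 8 of 34 in embryos, 7 of 77 in L3 larvae, 3 of 42 in the HRDE-1 IPs and 2 of 33 in the WAGO-1 IPs.

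mir-56, its neighbour, also had a smaller hairpin-row share in the cde-1 library of all 5 pairs, at 49.2% against 57.3% in embryos, 54.6% against 57.4% in L3 larvae, 49.0% against 60.5% in the HRDE-1 IPs, 49.7% against 55.7% in the WAGO-1 IPs and 48.6% against 50.1% in total RNA, where only the first 3 differences exceeded counting error. mir-51 had 52.9% in cde-1 and 59.2% in control animals in the HRDE-1 IPs (-6.32 [-9.14, -3.50]) and 49.9% in eri-1;cde-1 and 53.2% in eri-1 L3 larvae (-3.23 [-4.45, -2.01]). mir-54, whose reads also come from the 3′ arm, showed no difference beyond counting error in any pair.

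Over all miRNA genes the median difference was -3.85 points in embryos, -0.922 in L3 larvae, -2.5 in the HRDE-1 IPs, 0.204 in the WAGO-1 IPs and -0.813 in total RNA. Members at least 5 points lower numbered 2 of 5, 1 of 6, 3 of 4, 3 of 4 and 1 of 6 in these pairs, against 38.2%, 11.7%, 35.7%, 24.2% and 13.9% of all miRNA genes tested, so the drop was common to many miRNAs in embryos and HRDE-1 IPs. The member at least 5 points higher was mir-53 in L3 larvae, by 5.27 [-1.46, 11.9], against 5.88%, 3.9%, 11.9%, 24.2% and 8.33% of the miRNA genes in the same order of pairs.

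**Figure D4:**
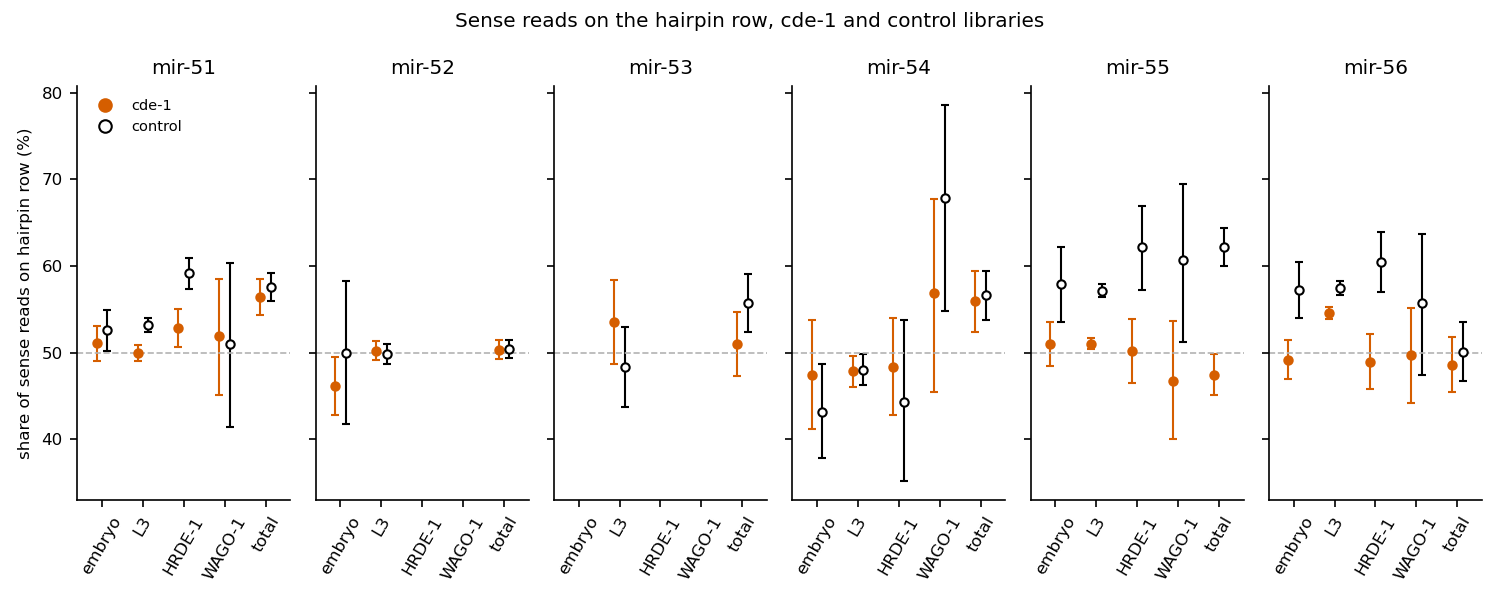
Share of each member's sense reads that fell on the hairpin row (%) in cde-1 (filled) and control (open) libraries of the 5 pairs, with 95% Wilson intervals, the dashed line at 50% and members with fewer than 50 reads in either library left out. For mir-55 the cde-1 values lie between 46.8% and 51.0% and the control values between 57.2% and 62.2%.

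Reads antisense to the members were few, but those of 2 members were higher in cde-1 libraries. mir-53 had 94 antisense reads (16.9 RPM) in cde-1 total RNA and none in N2, at least 36.0-fold higher against a floor of 3 reads, and 691 (123 RPM) in eri-1;cde-1 against 4 (0.773 RPM) in eri-1 L3 larvae, a ratio of 160 [59.8, 427]. It had 7 and 2 in the WAGO-1 IPs of cde-1 and control animals, 1 and 1 in the HRDE-1 IPs and 1 and 0 in the embryo IPs. In eri-1;cde-1 larvae 63.0% of all mir-53 reads were antisense. mir-53, the member with the fewest sense reads there, was the miRNA gene with the most antisense reads in both cde-1 libraries, with 30.7% of antisense miRNA reads in total RNA and 25.8% in L3 larvae.

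Its neighbour mir-51 showed the antisense reads in other libraries. It had 84 (12.3 RPM) in the cde-1 and 8 (1.40 RPM) in the control WAGO-1 IP, a ratio of 8.81 [4.27, 18.2], and 59 (8.67 RPM) and 8 (1.89 RPM) in the HRDE-1 IPs, a ratio of 4.58 [2.19, 9.58]. In L3 larvae it had 40 and 4 antisense reads (ratio 9.25 [3.31, 25.8]), in embryos 10 and 1 (5.29 [0.677, 41.3]) and in total RNA 3 and 0. It ranked first among miRNA genes for antisense reads in the cde-1 HRDE-1 and WAGO-1 libraries, with 28.2% and 33.1% of them. For mir-51 and mir-53 the order of the 2 members thus differed between libraries, with mir-53 ahead in cde-1 total RNA and eri-1;cde-1 L3 larvae and mir-51 ahead in the cde-1 libraries of the embryo, HRDE-1 and WAGO-1 IPs.

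These reads lay almost wholly on hairpin rows, 798 of 801 for mir-53 and 211 of 217 for mir-51 over the 10 libraries, and so mostly do not match the full mature arm. mir-52 had 13 and 15 antisense reads in the HRDE-1 IPs of cde-1 and control animals (ratio 0.538 [0.256, 1.13]) and 10 and 13 in L3 larvae (0.711 [0.312, 1.62]). mir-54 had 10 and 14 in L3 larvae (0.660 [0.293, 1.49]), and mir-55 and mir-56 had 0 to 5 in any library. Of members with at least 10 antisense reads in either library, 1 of 1 was at least 2-fold higher in total RNA, 1 of 1 in embryos, 2 of 4 in L3 larvae, 1 of 2 in the HRDE-1 and 1 of 1 in the WAGO-1 pair. Each member counted as higher had fewer than 10 antisense reads in its control and passed the filter only through the cde-1 library. These counts therefore add nothing to the ratios above, and the embryo interval [0.677, 41.3] includes 1. Over all miRNA genes tested, 71.4% of 7, 50% of 2, 70.7% of 41, 40% of 5 and 60% of 5 were at least 2-fold higher and 0%, 0%, 2.44%, 20% and 20% at least 2-fold lower, and no member was lower by 2-fold. In L3 larvae 29 of the 41 genes were thus higher, while the other pairs had at most 7 genes to compare and the median ratio in the HRDE-1 pair was 0.621. Without the family, antisense miRNA reads were 1.78-fold [1.43, 2.21] in total RNA, 1.04-fold [0.722, 1.48] in embryos, 2.75-fold [2.51, 3.01] in L3 larvae, 0.509-fold [0.405, 0.638] in the HRDE-1 and 0.947-fold [0.755, 1.19] in the WAGO-1 IPs.

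**Figure D5:**
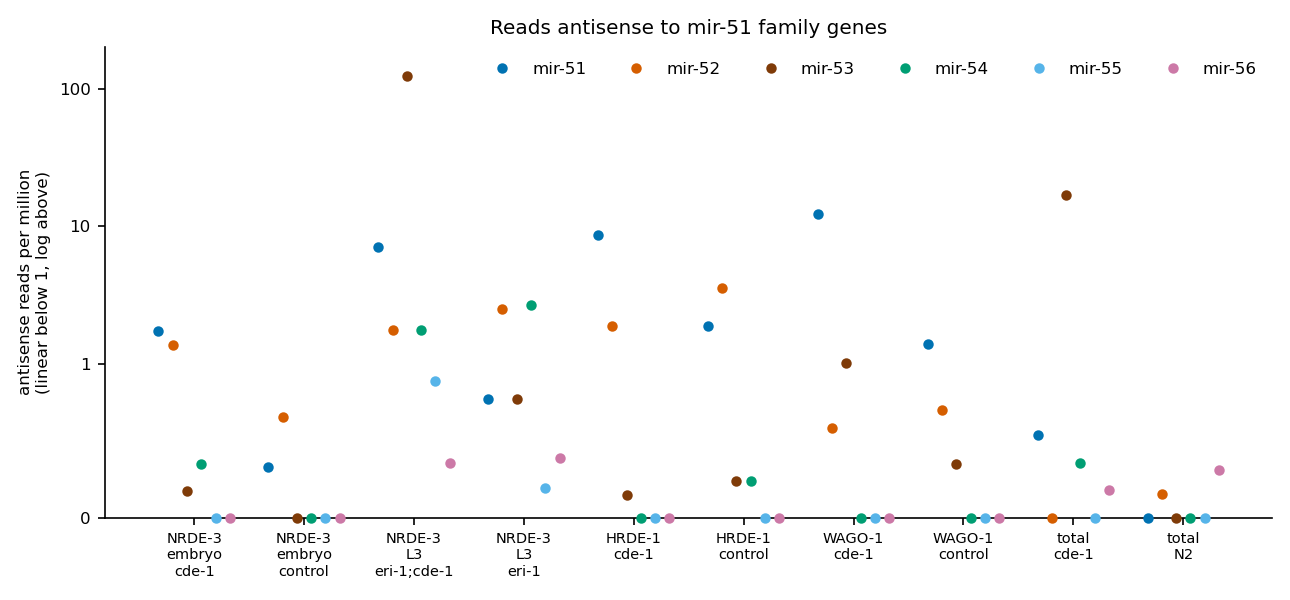
Antisense reads (RPM) for each member in the 10 libraries (linear below 1, logarithmic above), each cde-1 library left of its control. mir-53 reaches 123 RPM in the eri-1;cde-1 L3 library and 16.9 in cde-1 total RNA, and mir-51 reaches 12.3 and 8.67 in the WAGO-1 and HRDE-1 libraries of cde-1 animals.

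Among the 19 miRNA genes outside the family with at least 50 sense reads in each of the 10 libraries, the log2 share of mir-90 followed the family's sum most closely (Pearson's r = 0.743, Spearman's rho = 0.661), followed by mir-81 (0.586), mir-65 (0.545), let-7 (0.539) and mir-64 (0.537). The least alike were mir-35 (-0.771) and mir-72 (-0.305). These values describe 10 libraries that share stages, strains and pulldowns, and the shares add up to a fixed sum. The L3 libraries held 2.03% and 2.43% mir-90 in eri-1;cde-1 and eri-1 larvae, against 0.404% to 0.815% in the other 8.

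The other families gave the scale of the genotype differences. The let-7 family was between 0.662-fold and 0.922-fold in cde-1 relative to control over the 5 pairs, a narrower band than the mir-51 family's 0.658-fold to 1.43-fold. The mir-35 family was 0.608-fold [0.600, 0.616] in total RNA and 0.539-fold [0.468, 0.622] in the WAGO-1 IPs, where the mir-51 family was 0.929-fold and 1.43-fold. In the HRDE-1 IPs the mir-35 family was 0.814-fold [0.729, 0.909]. It was higher in embryos, at 1.25-fold [1.22, 1.27], and in L3 larvae, at 1.26-fold [1.18, 1.35]. The mir-51 family was 0.658-fold, 1.27-fold and 1.02-fold in these 3 pairs. The lin-4 family (lin-4 and mir-237), with 2 reads in each embryo library, lay between 0.851-fold and 1.31-fold in the other 4 pairs.

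Small RNAs antisense to genes of the miRNA pathway and related genes were read as 22G-RNAs would be, over a list of 19 genes. The list held drsh-1, pash-1, dcr-1, alg-1, alg-2, ain-1, ain-2, xrn-1, xrn-2, paxt-1, nhl-2, lin-28, lin-41, tsn-1, vig-1, rde-4, pup-2, pup-3 and cdh-3. For the pairs in embryos, L3 larvae, HRDE-1 IPs, WAGO-1 IPs and total RNA, 11, 13, 18, 12 and 15 of them had at least 50 antisense reads in either library. Of these 6, 5, 9, 1 and 6 were at least 2-fold higher in the cde-1 library and 0, 0, 0, 0 and 1 at least 2-fold lower, against 28.2%, 45.1%, 28.4%, 15.8% and 23.4% higher and 21.6%, 17.7%, 12%, 16.5% and 7.1% lower among all protein-coding genes tested. dcr-1, which encodes Dicer, was the gene that passed 2-fold in every pair, at 2.21, 2.93, 4.86, 2.82 and 3.19. alg-1, which encodes the main miRNA Argonaute, had 2069 RPM in eri-1;cde-1 and 96.2 in eri-1 L3 larvae, a ratio of 21.5 [19.7, 23.5], and 96.3 and 12.5 RPM in cde-1 and control embryos, a ratio of 7.71 [5.55, 10.7]. It was also higher in the HRDE-1 IPs (2.59) and in total RNA (2.66), but not beyond counting error in the WAGO-1 IPs (1.05 [0.813, 1.34]).

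Other genes of the list passed 2-fold in fewer pairs. drsh-1, which encodes Drosha, was at 6.13 in L3 larvae, 2.06 in HRDE-1 IPs and 2.16 in total RNA. In HRDE-1 IPs alg-2 (4.58), ain-2, a GW182-like partner of the miRNA Argonautes (5.07), the exonuclease gene xrn-1 (3.23), lin-41, a let-7 target (3.92), tsn-1 (3.41) and vig-1 (2.80) were higher. In embryos ain-2 (3.00), nhl-2 (4.07), vig-1 (2.12) and pup-2 (3.90) were higher, in L3 larvae xrn-1 (2.55) and tsn-1 (2.53), and in total RNA xrn-1 (2.07), tsn-1 (2.36) and vig-1 (2.18). pup-3, a further poly(U) polymerase gene like pup-2, was the one gene at least 2-fold lower, at 0.396 [0.241, 0.649] in total RNA.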

How the data were processed

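Argonaute-bound small RNAs were cloned after phosphatase and T4 polynucleotide kinase treatment, so that cloning did not depend on the 5′-phosphate. The paper does not state this treatment for the total small RNAs. The authors removed adaptors, used Bowtie2 with default settings to align reads 18 to 30 nt long against transcripts of the WS243 release (version not given in the sources used here), and deposited counts per transcript, sense and antisense. A read that fits several transcripts equally is placed on 1 of them at random by that program, so a mature miRNA's reads are spread over its hairpin and arm rows. These rows were summed per gene. The tables hold 603 miRNA rows, 18 of them of the family. Rows with missing fields, no transcript class or counts that are not numbers were left out (at most 0.00152% of counted reads per library). The sense and antisense columns of 7 rRNA features, read mostly on the opposite side in every library, were exchanged. lin-58 in the tables was read as mir-48. Names and positions came from Ensembl release 115.

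Depth was 5200610 to 9919222 counted reads. Without molecular identifiers, PCR copies count as separate reads, and intervals and floors cover counting error only. Intervals are 95%, Wilson for shares and log-normal for ratios. Against 0 reads a floor of 3 reads was used, per library. Comparisons over all miRNA genes took those with at least 50 sense, or 10 antisense, reads in either library and a 2-fold difference. With 1 library per group no test was run and no p-value is given. Hairpin-row differences have 95% Newcombe intervals.

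The 6 members were named in full, with the 5 miRNAs most and the 2 least like the family's sum, 3 comparison families, and pathway genes past 2-fold. Members, lists and tests were chosen with earlier results of these data known. The hairpin-row shares and antisense reads of miRNA genes were added after the values had been seen. The 6 rRNA tail libraries, whose table has 6 value columns that match no label, were not used here. Python 3.11.15, pandas 2.3.3 and scipy 1.17.1 were used, with scaling factors from edgeR 4.0.16 (TMM) and DESeq2 1.42.0 (median of ratios) as alternatives. The calls were tried on simulated sense counts of all genes with planted differences. Shares within the miRNA class were not simulated, so the calls on them were not tested in this way.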

Additional observations from a re-analysis of the deposited data

Results flagged for a closer look

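For the family's sum and for 5 of its members, the cde-1 library was higher than its control in one pair and lower in another, with both intervals clear of 1. The difference between the pairs was not tested, since each group has 1 library. The family's ratio was 1.43 in the WAGO-1 IPs and 0.658 in the HRDE-1 IPs, both from young adults. mir-51 was at 1.47 and 0.474 in the same pairs. mir-56 was at 1.65 in the WAGO-1 and 0.830 in the HRDE-1 IPs. mir-52 was at 3.96 in NRDE-3 embryo IPs and 0.912 in NRDE-3 L3 IPs, and mir-53 at 3.17 and 0.767. mir-54 was at 1.86 in the HRDE-1 IPs and 0.493 in the embryo IPs. The embryo libraries differed in sense rRNA, at 25.9% of counted reads in cde-1 and 66.1% in control, and the part of rRNA content in these values was not tested.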

How the results depend on the processing

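The ratio of the family, cde-1 over control, was recomputed in total RNA, embryos, L3 larvae, HRDE-1 and WAGO-1 IPs. On the RPM scale it was 0.974, 1.02, 1.12, 0.630 and 1.66. Per counted read it was 0.879, 2.23, 1.03, 0.625 and 1.65, where the embryo denominators include 25.9% and 66.1% sense rRNA in cde-1 and control. With arm rows alone, chosen after seeing the data, it was 0.984, 1.37, 1.09, 0.791 and 1.66. TMM scaling gave 0.858 in total RNA, 1.41 in embryos, 0.988 in L3 larvae and 0.555 in HRDE-1 IPs, and median-of-ratios scaling gave 0.847 in total RNA, 0.912 in L3 larvae and 0.580 in HRDE-1 IPs, so that the L3 direction turned. Against miRNA reads outside the family the HRDE-1 ratio was 0.625, and without mir-260 the embryo ratio was 1.13.

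Of the members, mir-55 in total RNA turned to 0.986 (TMM) and 0.975 (median of ratios), mir-51 in embryos to 1.57 per counted read, mir-52 in L3 larvae to 1.00 on the RPM scale, mir-53 in L3 larvae to 2.05 with both strands, and mir-56 in HRDE-1 IPs to 1.07 with arm rows alone. The family's share of miRNA reads was 12.9% and 11.4% in cde-1 and control embryos without mir-260, and 6.37% in the WAGO-1 cde-1 library with both strands. With the reads of the noncoding RNA opposite mir-52 added to mir-52, also chosen after seeing the data, it was 6.77% in cde-1 embryos, 14.2% and 14.0% in eri-1;cde-1 and eri-1 L3 larvae, and 7.27% and 7.75% in cde-1 and N2 total RNA, and the family's IP ratios were 1.22 and 1.73 (HRDE-1) and 0.814 and 0.533 (WAGO-1) in cde-1 and cde-1(+) animals, and L3 over embryo 2.70 in cde-1(+).

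On the RPM scale, the IP ratios turned for the family (0.234 and 0.362 with HRDE-1 in cde-1 and cde-1(+) animals), and its WAGO-1 ratios were 0.0470 and 0.0275. In cde-1 animals mir-51, mir-54, mir-55 and mir-56 turned to 0.765, 0.327, 0.329 and 0.833 with HRDE-1 and to 0.0790, 0.0774, 0.0940 and 0.274 with WAGO-1. In cde-1(+) animals mir-55 turned to 0.319 with HRDE-1, and mir-55 and mir-56 to 0.0661 and 0.191 with WAGO-1. L3 over embryo was 10.2 and 9.33 for the family. The cause of these changes was not tested.

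Counts of miRNA genes past 2-fold moved with the filter. In total RNA 4 were higher and 3 lower, against 13 and 6 at 10 reads, 18 and 9 with no filter and 15 and 15 at 1.5-fold, and 2 higher at 200 reads. In embryos 5 were higher and 3 lower, against 9 and 9 at 10 reads, 12 and 16 with no filter, 8 and 1 with TMM, and 3 higher at 200 reads and 12 higher at 1.5-fold. In L3 larvae 2 were higher and 0 lower, against 10 and 3 at 10 reads, 12 and 6 with no filter, 11 and 5 at 1.5-fold, and 1 higher at 200 reads or with median-of-ratios scaling. In HRDE-1 IPs 2 were higher and 4 lower, against 14 and 8 with no filter and 8 and 8 at 1.5-fold, and 6 higher at 10 reads and 1 at 200 reads or with TMM. In WAGO-1 IPs 1 was higher and 0 lower, against 3 and 2 at 10 reads, 9 and 7 with no filter and 6 and 2 at 1.5-fold, and 3 higher with TMM. At 50 antisense reads, chosen after seeing the data, miRNA genes with higher antisense reads numbered 1, 0, 6, 1 and 1 in total RNA, embryos, L3 larvae, HRDE-1 and WAGO-1 IPs, and 0 were lower in L3 larvae. At 10 antisense reads 1 gene of the pathway list, cdh-3, was lower in WAGO-1 IPs. The other recomputed values, 80 of the main results and 243 of single members and miRNAs, stayed within the interval or 1.5 times the count of the first value. A further 88 of single members and miRNAs moved past it. Among these recomputed values, ratios with a first interval clear of 1 kept their direction, but some whose interval included 1 crossed it. The ratios with a first interval clear of 1 that turned are those given above as turned. In total RNA mir-52 went from 0.995 to 1.04 on the RPM scale, and mir-53 from 0.919 to 1.04 with both strands and 1.02 with arm rows alone. In the WAGO-1 IP over total RNA of cde-1(+) animals mir-54 went from 1.23 to 0.0525 on the RPM scale. Likeness to the family kept its sign with Spearman's rho for all 7 miRNAs named. No paired analysis was possible because each group had 1 library. Depth limits mir-53 in the HRDE-1 and WAGO-1 IPs, and mir-52 in the WAGO-1 IPs, to statements about bounds.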
